A study of Gallus gallus with 8 samples.

Results

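Fibroblast growth factors (FGFs) are small signalling proteins. The transcripts of 9 FGF genes, FGF1, FGF2, FGF3, FGF8, FGF10, FGF12, FGF13, FGF18 and FGF19, were followed in chick ectoderm that forms the inner ear and in chick ectoderm exposed to added FGF2. The aim was to see which of them are found in dissected otic tissue and which of them respond to FGF2. The genes were found by symbol in the annotation of an Affymetrix GeneChip Chicken Genome array, where a probe set is a group of short oligonucleotides that reads a transcript. They have 15 probe sets, out of 13009 genes and 27168 probe sets that name a single gene. FGF13 is read by 4 probe sets, FGF1 by 3, FGF3 by 2 and each of the other 6 genes by 1. Where a gene has several, they are told apart by their brightness over the 8 arrays, and the brighter and the dimmer one of FGF3 are called S1 and S2 after the ends of their names.

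Otic ectoderm, freshly dissected from stage 10 embryos, was compared with freshly dissected lateral ectoderm of the same stage, which lies beside the otic placode. Trigeminal ectoderm was dissected at stage 8, before its placode forms, and cultured in collagen gels in a defined medium. The culture lasted 18 h, and the medium held FGF2 at 50 ng/ml or no FGF2. Each of the 4 groups was measured on 2 arrays. Each array received RNA of pooled pieces of ectoderm, amplified in 2 rounds and labelled with biotin, and the labels name no mutation or transgene in any group. The FGF2 in the medium was protein, so that the FGF2 probe set reads chick FGF2 RNA and not the added factor. The labels number the samples of a group but do not say whether the pools came from separate days, and p-values measure only the spread between these samples.

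FGFs bind receptor tyrosine kinases, FGFR1 to FGFR4, together with heparan sulfate at the cell surface, and signal largely through the MAP kinase pathway. Cells that receive the signal switch on Ets-domain factors and feedback inhibitors such as the Sprouty proteins, whose RNA is widely used as a readout of FGF activity. The otic placode is a patch of ectoderm beside the hindbrain that is induced by FGFs from the tissue around it. FGF3 and FGF10 are known to be needed together for this step in mouse, and FGF3, FGF19 and FGF8 have been linked to it in chick. Of the 9 genes, FGF12 and FGF13 are called FGFs by sequence only. Their proteins stay inside the cell, where they bind voltage-gated sodium channels, and they are not ligands in the usual sense.

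The values are linear intensities as deposited. The median intensity of an array lay between 25.6 and 31.7, and the correlation between the 2 arrays of a group was 0.914 to 0.933. The table holds no detection calls, so that each level is given beside the array medians, and levels are not compared between probe sets. Of the 15 probe sets, the brightest of FGF13 was above the array median on all 8 arrays. FGF12, FGF19 and the next brightest of FGF13 were above it on 7, FGF8 on 6, FGF3 S1 and the brightest of FGF1 on 5, FGF3 S2 and FGF18 on 4, and FGF10 and the next brightest of FGF1 on 1. FGF2 and the remaining probe sets of FGF1 and FGF13 were above it on 0 arrays. The sum of 9 otic placode markers, led by the homeobox gene GBX2, was 12900 and 13200 on the otic arrays and 1770 and 2790 on the lateral arrays, and 6 of the 9 were higher in otic ectoderm. In the cultures, the sum of 6 trigeminal placode markers was 1090 and 1250 with FGF2 and 408 and 680 without it. It was 832 and 1240 on the otic arrays and 100 and 252 on the lateral arrays. The sum thus does not set the cultures with FGF2 apart from otic ectoderm, where ISL1 made up most of it. Of these markers, ISL1 stood at 452.5 and 686 with FGF2, at 185.5 and 114 without it, and at 635.5 and 1023 on the otic arrays. DLL1 stood at 451.5 and 384 with FGF2, at 177 and 472 without it, and at 155 and 201 on the otic arrays. Both genes were far above the array medians. PAX3, a defining marker, stood in the cultures at 34.4 and 18.6 with FGF2 and at 13.7 and 34 without it, close to the medians. It had 11.1 and 4.6 on the otic arrays. NEUROD1 had 28 and 24 with FGF2 against 0.7 and 1.1 on the otic arrays, and NEUROG1 had 38.8 and 83.5 against 18 and 7.9. NEUROG2 had 83.2 and 54.8 with FGF2 against 12.1 and 0.9 on the otic arrays. Every listed trigeminal marker except ISL1 was thus higher on both arrays with FGF2 than on both otic arrays. SOX10, a marker of neural crest, stood in the cultures at 1395 and 1228 with FGF2 and at 1910 and 3131 without it, against 50.5 and 117 on the otic arrays and 11.1 and 22.4 on the lateral arrays. Of the other listed crest markers, FOXD3 and TFAP2B were also higher in the cultures than on the otic and lateral arrays. SOX9, SNAI2 and ETS1 overlapped between the cultures and otic ectoderm.

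Differences were tested with limma on the log2 scale over all 8 arrays and 38439 probe sets. A probe set is called higher or lower here when its fold change was above 2 and its unadjusted p was under 0.05. After Benjamini-Hochberg adjustment 0 of the 38439 probe sets had a p under 0.05 in either main comparison, so that every call rests on the unadjusted p. The unadjusted p was under 0.05 in 8.24% of probe sets for otic minus lateral ectoderm and in 5.26% for FGF2 minus no FGF2. In pooled tissue, more cells that make a transcript and more transcript per cell cannot be told apart.

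In otic ectoderm 6 of the 9 genes, FGF1, FGF3, FGF8, FGF10, FGF18 and FGF19, were called higher than in lateral ectoderm, on 7 of the 15 probe sets, and 1 probe set of FGF13 was called lower. Over all probe sets tested 5.05% were called higher and 2.73% lower. The text of the paper names FGF3, FGF8, FGF18 and FGF19 as FGF ligands of its otic-enriched set, and does not name FGF1 or FGF10 there. The arrays did not overlap, with otic ectoderm higher, for 7 of the 15 probe sets, against 24.7% of all, and with otic ectoderm lower for 2 of the 15, against 11.3% of all. The median log2 difference was 0.29 over the 15 probe sets and 0.19 over all. That general shift of 0.19 was 0.012 after quantile normalization, and single log2 differences contain it. With the fold limit alone, 7 probe sets were higher and 3 lower, against 14.6% and 9.04% of all.

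**Figure D1:**
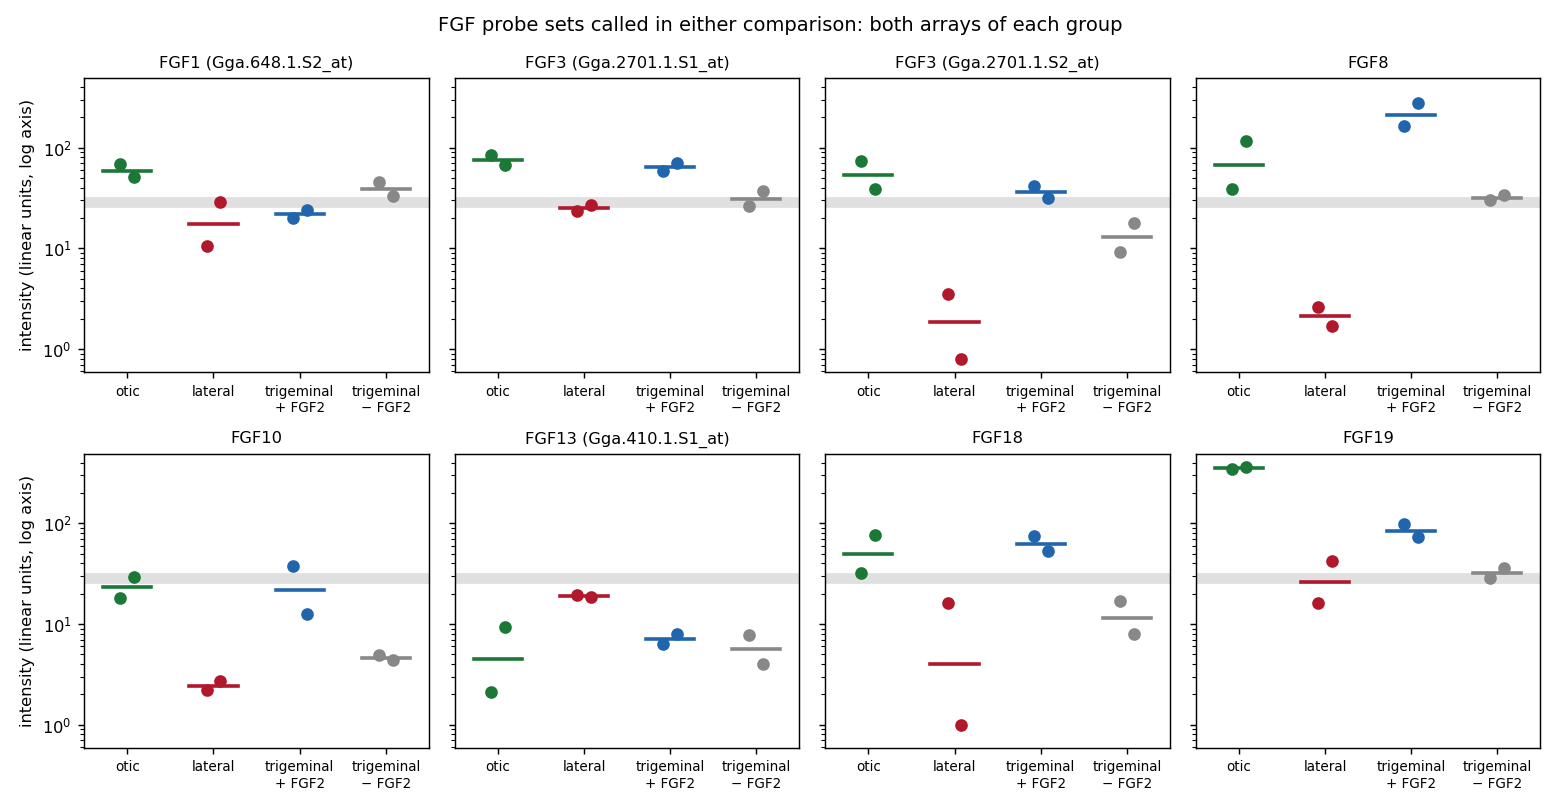
Intensity on a log axis of the 8 FGF probe sets called in otic against lateral ectoderm or with against without FGF2, with both arrays of each group as points, the mean of their log2 values as a line and the range of the 8 array medians (25.6 to 31.7) as a grey band. FGF8 was at 2.6 and 1.7 on the lateral arrays, far under the band, and FGF19 was at 349.7 and 359.9 on the otic arrays, far above it.

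FGF8 and FGF18 belong to the same subfamily of paracrine FGFs, which act on nearby cells. FGF8 read 39.1 and 118 on the otic arrays, against 2.6 and 1.7 on the lateral arrays. Both otic arrays were above the array median and both lateral arrays were far below it, and the otic arrays were themselves well apart. The log2 difference was 5.01 (standard error 0.61, adjusted p = 0.2), and only 0.0546% of all probe sets had a smaller p. This is a 32.3-fold difference, whereas the paper lists a much smaller otic enrichment on this same probe set. With values under 16 set to 16 the log2 difference was 2.08, so that its size depends on how the low lateral values are treated. By in situ hybridization, the paper that reported these data found FGF8 RNA largely missing from the otic placode and strong in ectoderm next to it. It names neighboring tissue in the dissected pieces as a likely source of false positives. The FGF8 reading therefore belongs to the dissected piece and not to the placode alone, and the part of neighboring ectoderm was not tested here. FGF18 read 32.4 and 75.9 on the otic arrays, against 16.2 and 1 on the lateral arrays. Its groups did not overlap, but a lateral array at the bottom of the scale decided the size of the log2 difference of 3.62 (standard error 1.27, adjusted p = 0.53). FGF18 was no longer called without lateral replicate 2, with a log2 difference of 1.61, as well as without otic replicate 1 or otic replicate 2, and the values without an array ran up to 5.63. The call was also lost in a fit of only the 4 otic and lateral arrays and with quantile normalization and an offset of 32, which was added to every value before the log2 (0.96).

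FGF3 and FGF10 signal mainly through the epithelial splice form of FGFR2. FGF3 was read by 2 probe sets, and both were higher in otic ectoderm. FGF3 S1 had 83.9 and 66.7 on the otic arrays and 23.3 and 26.7 on the lateral arrays, a log2 difference of 1.58 (standard error 0.36, adjusted p = 0.32). FGF3 S2 had 73.4 and 38.5 on the otic arrays and 3.5 and 0.8 on the lateral arrays, a log2 difference of 4.83 (standard error 0.71, adjusted p = 0.2). The probe sets gave the same direction and very different sizes. In lateral ectoderm S1 stayed near the array median and S2 lay at the bottom of the scale. FGF10 had 18.1 and 29.6 on the otic arrays against 2.2 and 2.7 on the lateral arrays, a log2 difference of 3.25 (standard error 0.58, adjusted p = 0.22). The FGF10 arrays were clearly apart, but neither otic array was above the median of its array.

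FGF19, an endocrine-type FGF whose mammalian form needs a Klotho co-receptor, stood far above the array medians in otic ectoderm, at 349.7 and 359.9 on the otic arrays against 16.2 and 42.2 on the lateral arrays. The otic arrays agreed closely, and the spread came from the lateral ones. The log2 difference was 3.76 (standard error 0.52, adjusted p = 0.2). The paper lists FGF19 as expressed in mesoderm and endoderm. Its introduction also places chick FGF3 and FGF19 first in mesoderm under the future placode and later in the hindbrain beside it. In the RefSeq annotation of the chicken genome (assembly GRCg7b), FGF19, FGF4 and FGF3 are consecutive protein-coding genes. FGF4, which lies between FGF19 and FGF3, had 2.3 and 3.4 on the otic arrays and 8.7 and 1 on the lateral arrays on its brightest probe set, a log2 difference of -0.08 with overlapping arrays.

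FGF1 and FGF2 are ligands without a classical secretion signal. FGF1 was higher in otic ectoderm on its brightest probe set, with 68.5 and 50.8 against 10.6 and 29.1 on the lateral arrays, a log2 difference of 1.75 (standard error 0.55, adjusted p = 0.48). Leaving out the first otic or the first lateral array ended this call, and the values without an array ran from 1.02 to 2.48. It was also lost in a fit of only the 4 arrays, with an offset of 32 (0.84) and with quantile normalization and the offset (0.77). The other 2 FGF1 probe sets overlapped between the groups. They ranged from 1.5 to 7.7 in otic ectoderm and from 0.9 to 25.5 in lateral ectoderm, so that the otic difference of FGF1 rests on a single probe set. FGF2 went the other way, with 1.6 and 7.7 on the otic arrays against 19.5 and 9.5 on the lateral arrays. Its log2 difference of -1.96 (standard error 0.81, adjusted p = 0.61) did not meet the limits, its groups did not overlap, and all 4 arrays were under their medians. It was called lower after quantile normalization or median centring and without otic replicate 2, where the difference was -3.09.

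The genes of the intracellular proteins, FGF12 and FGF13, were largely read at overlapping levels. FGF12 had 28.4 and 115 on the otic arrays and 71.7 and 75.9 on the lateral arrays, a log2 difference of -0.37 with a 95% confidence interval of -2.01 to 1.28. The brightest probe set of FGF13 had 197 and 401 on the otic arrays and 339 and 446 on the lateral arrays, a log2 difference of -0.47 (interval -1.73 to 0.79). FGF12 was called lower, at -1.38, without otic replicate 2. Both intervals include 2-fold decreases, and that of FGF12 2-fold increases as well. The third FGF13 probe set in brightness was called lower, with 2.1 and 9.4 on the otic arrays against 19.4 and 18.5 on the lateral arrays, a log2 difference of -2.09 (standard error 0.74, adjusted p = 0.53). Leaving out either lateral array or the first otic one ended this call, as did a fit of only the 4 arrays, a floor of 16 (-0.24) and an offset of 32 with or without quantile normalization, and the difference without an array ran from -3.17 to -1.01. The other FGF13 probe sets, including the 2 brighter ones, overlapped between the groups.

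**Figure D2:**
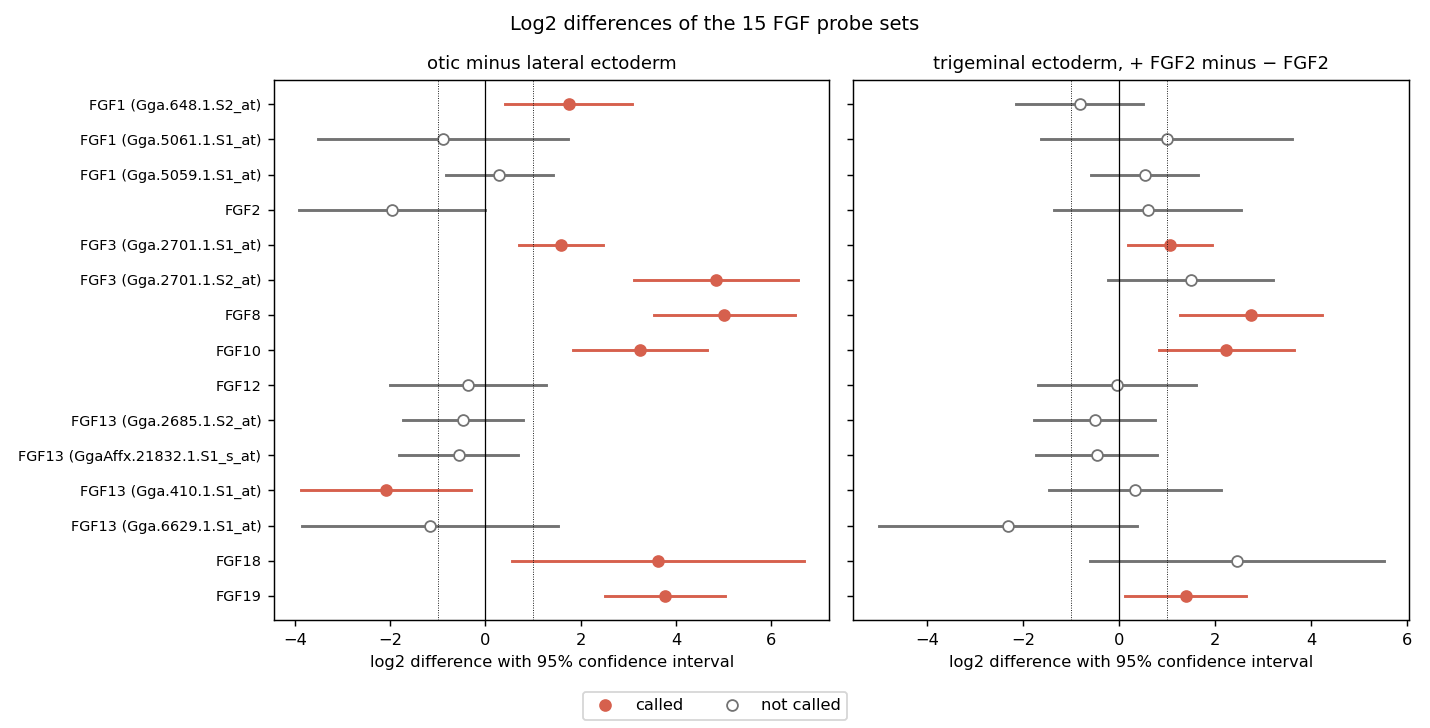
Log2 differences of all 15 FGF probe sets (points) with their 95% confidence intervals (bars) for otic minus lateral ectoderm on the left and FGF2 minus no FGF2 on the right, with dotted lines at 2-fold changes, filled points for probe sets that were called, and the probe sets of a gene from brightest to dimmest. FGF3, FGF8, FGF10 and FGF19 have filled points on both sides, at 1.58 and 1.06 for FGF3 S1, 5.01 and 2.74 for FGF8, 3.25 and 2.23 for FGF10 and 3.76 and 1.39 for FGF19.

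In cultured trigeminal ectoderm 4 of the 9 genes, FGF3, FGF8, FGF10 and FGF19, were called higher with added FGF2, each on 1 probe set, and 0 were called lower. Over all probe sets 2.74% were called higher and 2.26% lower. The arrays did not overlap, with FGF2 higher, for 6 of the 15 probe sets, against 23.4% of all, and with FGF2 lower for 2 of the 15, against 13.2% of all. The median log2 difference was 0.6 over the 15 probe sets and 0.1 over all. With the fold limit alone, 6 were higher and 1 lower, against 9.85% and 9.18% of all.

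FGF8 had the largest increase of the 4, with 164 and 278 with FGF2 and 30.1 and 33.9 without FGF2. Both arrays without FGF2 lay just above the array medians, so that this difference is not set by values at the bottom of the scale. The log2 difference was 2.74 (standard error 0.61, adjusted p = 0.46). The paper lists FGF8, on this same probe set, among the genes that FGF up-regulated. It also reports the increase by in situ hybridization in trigeminal ectoderm cultured with FGF2. FGF18, of the same subfamily, had 74.6 and 53.3 with FGF2 and 16.8 and 7.9 without it. Its log2 difference of 2.45 (standard error 1.27, interval -0.61 to 5.51) was nearly as large but did not meet the limits. It met them in 6 of 17 alternatives. In a fit of only the 4 cultured arrays and without lateral replicate 1 or lateral replicate 2 the log2 difference stayed at 2.45. With a floor of 16, where values under 16 were set to 16, it was 1.94, with an offset of 32 it was 1.11, and with quantile normalization and the offset it was 1.08.

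FGF3 had 59.3 and 71 with FGF2 and 26.4 and 36.9 without FGF2 on S1, a log2 difference of 1.06 (standard error 0.36, adjusted p = 0.83) that lies close to the 2-fold limit. The values without an array ran from 0.81 to 1.30, and FGF3 lost the call without either array with FGF2 or without replicate 1 of no FGF2. It also lost it after quantile normalization (0.99), with an offset of 32 (0.61) and with both (0.57). FGF3 S2 had 41.6 and 31.6 with FGF2 and 9.3 and 17.9 without it, a log2 difference of 1.49 (standard error 0.71, interval -0.23 to 3.21) that was not called. It was called in 4 of 16 alternatives, which were a floor of 16 (1.10), a fit of only the 4 cultured arrays and the fits without lateral replicate 1 or lateral replicate 2. FGF10 had 37.6 and 12.7 with FGF2 and 4.9 and 4.4 without it, a log2 difference of 2.23 (standard error 0.58, adjusted p = 0.6). The FGF10 groups were apart, and 3 of the 4 values were under the array median. The difference was 1.45 without replicate 1 of FGF2 and 3.02 without replicate 2 of FGF2, and the call held in both.

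FGF19 had 97.7 and 73.8 with FGF2 and 28.9 and 36.4 without it. The paper lists FGF19, on this same probe set, among the otic-enriched genes that FGF did not up-regulate, which differs from the call here. Its log2 difference of 1.39 (standard error 0.52, adjusted p = 0.9) was the least secure of the 4 calls. It was lost when any one of the otic arrays or of the cultured arrays was left out, although the difference itself then stayed between 1.19 and 1.59.

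FGF1, FGF2, FGF12 and FGF13 had 0 calls with FGF2. The brightest FGF1 probe set had 20 and 24.1 with FGF2 and 45.2 and 33.4 without it. The arrays were apart with FGF2 lower, opposite to the otic comparison, and the log2 difference was -0.82 (standard error 0.55, interval -2.15 to 0.50). The transcript of FGF2 itself had 25.8 and 20.8 with added FGF2 and 20.8 and 11.3 without it, a log2 difference of 0.60 with an interval of -1.36 to 2.55. FGF12 had a log2 difference of -0.04 (interval -1.69 to 1.6) and the brightest FGF13 probe set of -0.51 (interval -1.78 to 0.75). The dimmest FGF13 probe set had 7.6 and 0.8 with FGF2 and 18.8 and 10.1 without it, a log2 difference of -2.32 (standard error 1.11, interval -5.01 to 0.37). It was called lower without replicate 1 of FGF2 (-3.78) and with the replicate number as a block, and the next brightest FGF1 probe set was called higher without replicate 1 of FGF2 (2.43).

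FGF3, FGF8, FGF10 and FGF19 were thus called higher both in otic ectoderm and after FGF2, on 4 of 15 probe sets. The same held for 155 of all 38439 probe sets, or 0.403%. The main comparisons share no arrays, and the difference between them was tested in the same fit. Over all probe sets 6.06% had an unadjusted p under 0.05 in that test. The otic difference exceeded the FGF2 difference by 2.37 on the log2 scale for FGF19 (standard error 0.73, adjusted p = 0.68), a result past that limit in 13 of 15 alternatives and not without replicate 2 of FGF2 or replicate 2 of no FGF2. It did so by 2.57 for FGF1 on its brightest probe set (standard error 0.77, adjusted p = 0.66), which was higher in otic ectoderm and not after FGF2. For FGF8 the excess was 2.27 (standard error 0.87, adjusted p = 0.78) and for FGF3 S2 it was 3.34 (standard error 1.01, adjusted p = 0.66). These last differences were measured from lateral values at the bottom of the scale. With values under 16 set to 16 the excess was -0.66 for FGF8, and with an offset of 32 added before the log2 it was -0.35, so that its direction is not settled. The excess of FGF8 was past the limit in 8 of 15 alternatives, and not without otic replicate 2, lateral replicate 2, replicate 1 of FGF2 or either array with no FGF2. The excess of FGF3 S2 kept its direction but was then 0.63 and 0.75, with a p above the limit. It was past the limit in 10 of 14 alternatives, and not without otic replicate 1 or replicate 2 of no FGF2, where it was 2.87. For FGF10 the excess was 1.01 (interval -0.98 to 3), for FGF18 1.17 (interval -3.16 to 5.50) and for FGF3 S1 0.53 (interval -0.71 to 1.77), and none of these had a p under 0.05. Without replicate 1 of FGF2 the excess of FGF10 was 1.8 and past that limit, and without lateral replicate 1 that of FGF18 was 3.18 and past it.

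The levels fell into different orders. FGF8 was highest in trigeminal ectoderm with FGF2, then in otic ectoderm, then in trigeminal ectoderm without FGF2 and lowest in lateral ectoderm, and no neighbours in this order overlapped. FGF18 had the same order, with overlaps between trigeminal ectoderm with FGF2 and otic ectoderm and between trigeminal ectoderm without FGF2 and lateral ectoderm. FGF19, FGF3 on both probe sets and FGF10 were highest in otic ectoderm, followed by trigeminal ectoderm with FGF2, without FGF2, and lateral ectoderm. For FGF3 and FGF10 the otic arrays and those with FGF2 overlapped, whereas for FGF19 they were apart. The arrays with and without FGF2 were apart for all 4 of these probe sets. Trigeminal ectoderm without FGF2 and lateral ectoderm overlapped for FGF19 and FGF3 S1 and were apart for FGF10 and FGF3 S2. The brightest FGF1 probe set had another order, with otic ectoderm first, then trigeminal ectoderm without FGF2, with FGF2, and lateral ectoderm, the last of which overlapped with FGF2. FGF19 in trigeminal ectoderm with FGF2 (97.7 and 73.8) reached only a part of its level in otic ectoderm (349.7 and 359.9), a log2 difference of -2.06 (standard error 0.52, adjusted p = 0.32). FGF8 with FGF2 (164 and 278) was above FGF8 in otic ectoderm (39.1 and 118), a log2 difference of 1.66 (standard error 0.61, adjusted p = 0.57). This call was lost without otic replicate 1, where the difference was 0.86, without replicate 2 of FGF2, and without either array with no FGF2. In this comparison, which shares arrays with both main ones, 3.60% of all probe sets were called higher and 3.89% lower, and tissue, stage and culture cannot be told apart from FGF2. FGF10 differed by -0.08 (interval -1.49 to 1.32), FGF3 by -0.21 (interval -1.08 to 0.67) on S1, and FGF18 by 0.35 (interval -2.72 to 3.41), so that differences of more than 2-fold remain possible for FGF10 and FGF18 in either direction and for FGF3 S1 in the lower one. FGF1 on its brightest probe set was lower in trigeminal ectoderm with FGF2 than in otic ectoderm by a log2 difference of -1.43 (standard error 0.55, adjusted p = 0.59), a call that held in 7 of 15 alternatives. FGF2 was higher by 2.72 (standard error 0.81, adjusted p = 0.42), from values under the array medians, and by 0.53 with a floor of 16, where it was not called. It was also not called with the offset (0.6) or without otic replicate 1 (1.59) or replicate 1 of FGF2 (2.57).

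Trigeminal ectoderm cultured without FGF2 was also set against lateral ectoderm, a comparison chosen after seeing the values, in which tissue, stage and culture cannot be told apart. FGF8 had 30.1 and 33.9 in trigeminal ectoderm without FGF2 against 2.6 and 1.7 on the lateral arrays, a log2 difference of 3.93 (standard error 0.61, adjusted p = 0.094). FGF3 S2 had 9.3 and 17.9 against 3.5 and 0.8, a log2 difference of 2.79 (standard error 0.71, adjusted p = 0.22). These 2 were the FGF probe sets called, out of 15, where 5.53% of all probe sets were called higher and 4.59% lower. Both calls were lost with an offset of 32 and with a floor of 16, where FGF8 was 0.91 and 1 and FGF3 S2 was 0.41 and 0.08. FGF19 had 28.9 and 36.4 against 16.2 and 42.2, and its groups overlapped.

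Many of these readings lay near or under the array medians, and their sizes depended on how low values were treated. In otic minus lateral ectoderm FGF8 was 2.08 with a floor of 16 and 1.6 with an offset of 32, FGF3 S2 was 1.73 and 1.34, and FGF19 was 3.76 and 2.69. All 3 kept the call in every alternative fit that gave them a value (17 for FGF8 and FGF19, 16 for FGF3 S2), though not with an adjusted p under 0.05 as the limit, and the range over those fits was 1.5 to 5.81 for FGF8, 1.31 to 5.73 for FGF3 S2 and 2.6 to 4.45 for FGF19. FGF10 lost both its calls with the floor or the offset, at 0.53 and 0.69 for otic minus lateral ectoderm and at 0.62 and 0.61 for FGF2 minus no FGF2. With the offset FGF1 and FGF3 S1 also lost their otic calls, at 0.84 and 0.91, and FGF3 S1 and FGF19 their calls after FGF2, at 0.61 and 0.86. FGF18 moved the other way after FGF2, where it was called with the floor (1.94) and with the offset (1.11). FGF8 after FGF2 kept the call in all 17 alternatives, between 1.87 and 3.12.

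**Figure D3:**
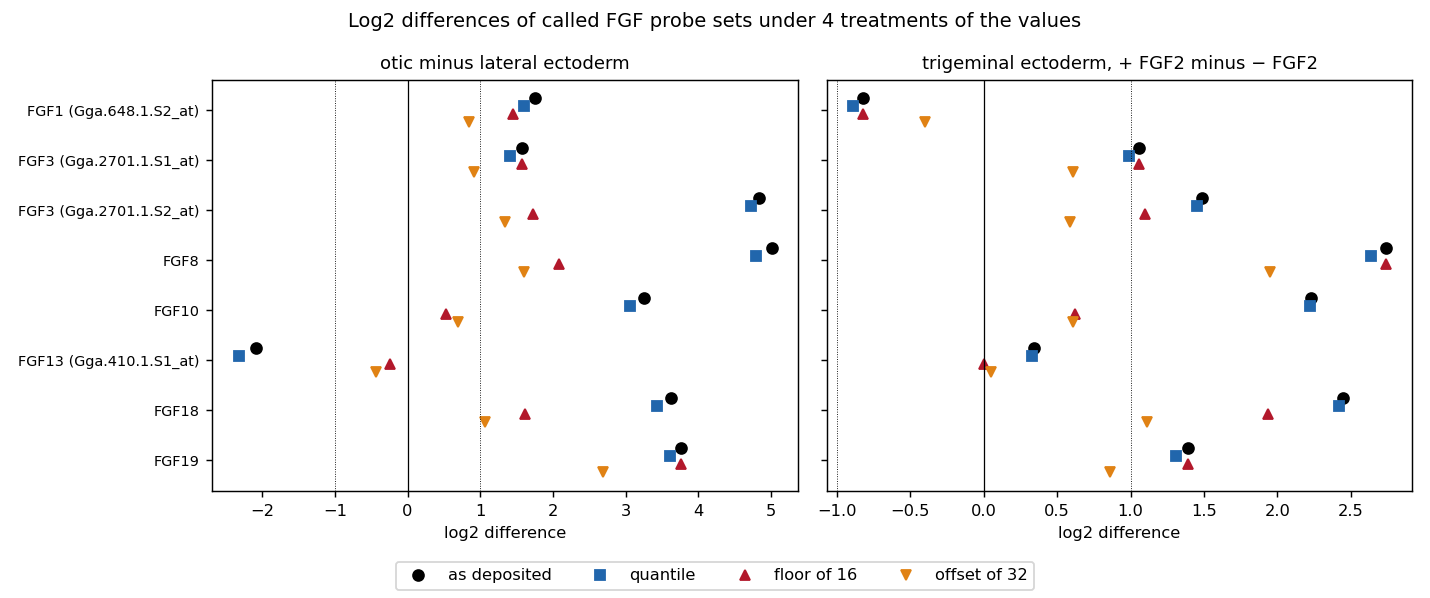
Log2 differences (horizontal axis) of the FGF probe sets called in either main comparison, for the values as deposited, after quantile normalization, with values under 16 set to 16 and with an offset of 32, with dotted lines at 2-fold changes and otic minus lateral ectoderm on the left, FGF2 minus no FGF2 on the right. Quantile normalization left FGF8 near its deposited 5.01 on the left, whereas the floor and the offset brought it to 2.08 and 1.6. On the right the floor left FGF8 at 2.74.

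The other genes of the pathway were counted from lists, each gene on its brightest probe set. Over all genes so taken 4.86% were called higher and 2.64% lower in otic ectoderm, and 2.14% higher and 1.48% lower after FGF2, with median log2 differences of 0.19 and 0.12. Of 9 other FGF genes on the array, among them FGF4, FGF5, FGF7, FGF9, FGF16 and FGF20, 0 were called in either comparison. Without replicate 2 of no FGF2, 3 were called higher after FGF2, and without replicate 1 of no FGF2, 1 was. In otic ectoderm 1 was called higher without lateral replicate 1 or either array with no FGF2, and 1 was called lower with the replicate number as a block and without either lateral array. Between 7 and 8 of the 9 were under the array median on both arrays of each group, and the highest value among them was 41.5. Their summed intensity was 112 and 125 on the otic arrays against 82 and 105 on the lateral arrays, and 149 and 147 with FGF2 against 83 and 129 without it.

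The receptor genes held few calls. Of 7 receptor and co-receptor genes 0 were called in otic ectoderm. Among them is FGFRL1, which the paper names in its otic-enriched set. It had 386 and 349 on the otic arrays against 210 and 224 on the lateral arrays, a log2 difference of 0.76 (standard error 0.34, adjusted p = 0.64) that was not called here. After quantile normalization, with or without the offset, after median centring and without otic replicate 2, 1 was called lower. FGFR1 had 950.4 and 1487 on the otic arrays and 690 and 865 on the lateral arrays, FGFR2 had 1165 and 1404 against 1147 and 2045, and FGFR3 had 1066 and 1973 against 2293 and 3314. These 3 genes were well above the array medians in all 4 groups. FGFR4 and the co-receptor gene KLB were dim, between 0.6 and 40.8. The paper states that the array has no probe set for FGFR4, whereas the annotation used here assigns a probe set to it. After FGF2, 0 of the 7 were called higher and KL, which encodes the co-receptor Klotho, was called lower, with 11.4 and 14.5 with FGF2 against 45.6 and 24.3 without it (log2 difference -1.37, standard error 0.56, adjusted p = 0.95), and this count of 1 held in 7 of 17 alternatives. The median log2 difference of the receptors was 0.06 in otic ectoderm and -0.61 after FGF2.

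Feedback inhibitors were called in both comparisons. Of 11 measured, 6 were higher and 0 lower in otic ectoderm, with a median log2 difference of 1.17, and 7 were higher and 0 lower after FGF2, with a median of 2.05. Over the alternatives the counts ran from 4 to 7 and from 5 to 8. SPRY1, a Sprouty protein that dampens the MAP kinase pathway, had 197 and 324 on the otic arrays against 7.8 and 24.6 on the lateral arrays, and 492 and 476 with FGF2 against 89.3 and 57.7 without it. SPRY2, its close relative, was higher by a log2 difference of 2.30 (standard error 0.39, adjusted p = 0.21) in otic ectoderm and of 2.70 (standard error 0.39, adjusted p = 0.28) after FGF2. IL17RD, also known as Sef, a membrane inhibitor of FGF receptors, was higher by 2.11 (standard error 0.46, adjusted p = 0.3) in otic ectoderm and by 2.05 (standard error 0.46, adjusted p = 0.47) after FGF2. DUSP6, a phosphatase that inactivates ERK, was higher by 1.34 (standard error 0.53, adjusted p = 0.59) in otic ectoderm and by 2.98 (standard error 0.53, adjusted p = 0.36) after FGF2. SPRY3 and DUSP5 were called after FGF2 and not in otic ectoderm, SPRED1 in otic ectoderm and not after FGF2, and the difference between the comparisons was not tested for these genes.

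Of 11 Ets-domain and other effector genes, 3 were higher and 0 lower in each comparison. ETV4, an Ets factor switched on by FGF signalling, had 219 and 259 on the otic arrays against 21.8 and 60.4 on the lateral arrays, and 271 and 286 with FGF2 against 60.1 and 85.5 without it. ETV5, its relative, was higher by 1.64 (standard error 0.35, adjusted p = 0.3) in otic ectoderm and by 1.02 (standard error 0.35, adjusted p = 0.84) after FGF2. ETV1 was called in otic ectoderm, at 1.03 (adjusted p = 0.56), and ELK3 after FGF2, at 1.24 (adjusted p = 0.67). The median of the list was 0.16 in otic ectoderm and 0.24 after FGF2, close to that of all genes. After FGF2 the count of 3 was 1 without replicate 1 of FGF2 or without replicate 1 of no FGF2.

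Heparan sulfate genes encode products that hold FGFs at the cell surface and tune their binding. Of 19 listed, 17 were matched by symbol, and HS3ST3B1 and SDC4 were not. The paper places HS3ST3B1 first among its otic-enriched genes and gives it as up-regulated by FGF, so that the counts here leave out a strongly otic gene. Of the 17 matched, 0 were called higher and 3 lower in otic ectoderm, and 1 was called in each direction after FGF2. SULF1, an enzyme that removes sulfate groups from heparan sulfate outside the cell, had 166 and 346 on the otic arrays against 626 and 973 on the lateral arrays, and 1102 and 1554 with FGF2 against 329 and 224 without it, so that its calls had opposite directions. HS3ST2, a heparan sulfate sulfotransferase, was lower by -1.26 in both comparisons (adjusted p = 0.56 in otic ectoderm and 0.9 after FGF2). GPC3, a glypican that carries heparan sulfate, was lower in otic ectoderm by -1.56 (adjusted p = 0.56) and differed by 0.01 after FGF2. The 3 lower calls in otic ectoderm became 1 in a fit of the 4 arrays and 0 without otic replicate 1 or lateral replicate 2, 1 was called higher without otic replicate 1, and the lower call after FGF2 was lost without either array with FGF2 and with the replicate number as a block.

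**Figure D4:**
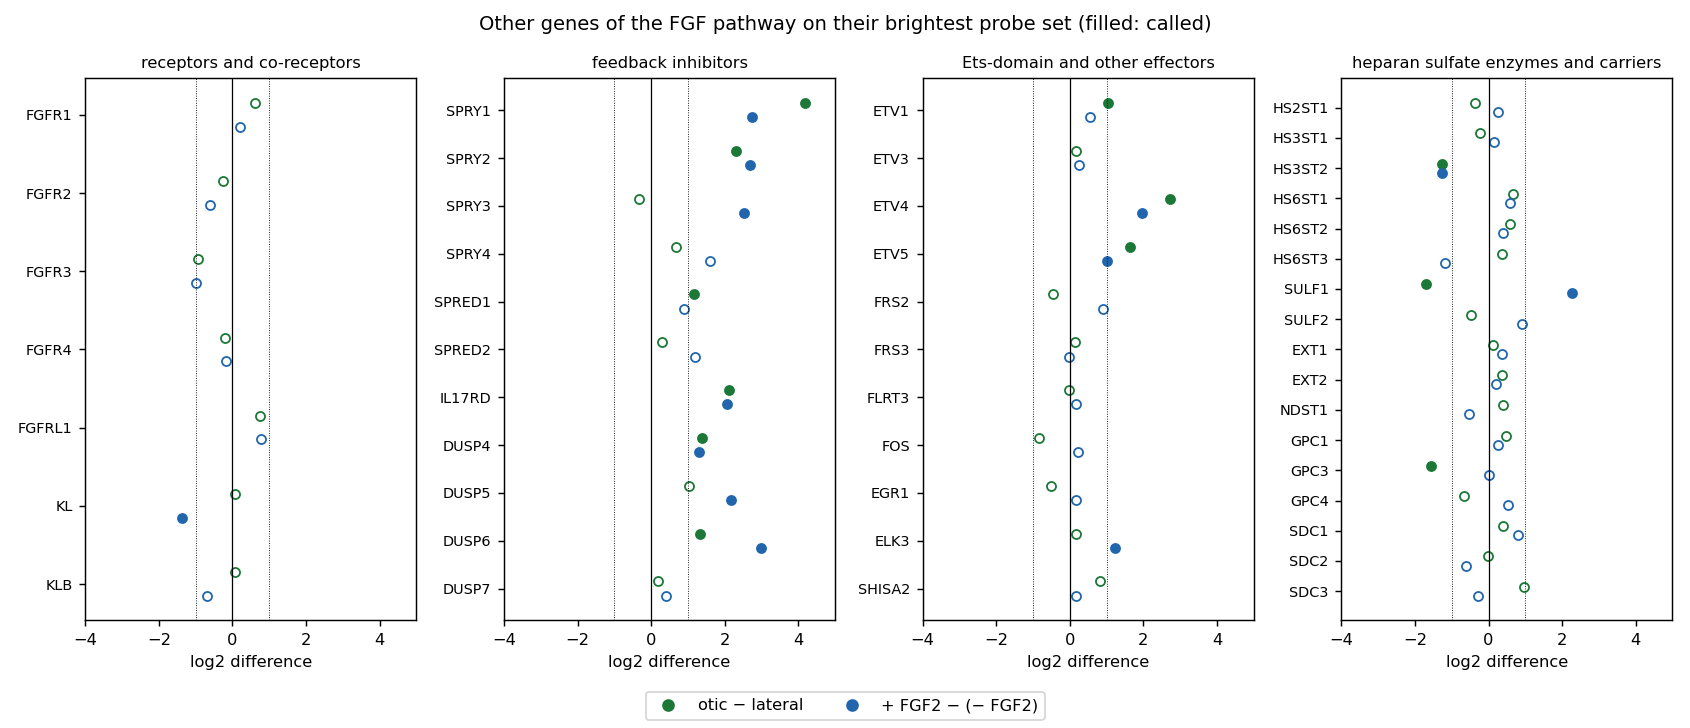
Log2 differences (horizontal axis) of FGF receptors, feedback inhibitors, effectors and heparan sulfate genes on their brightest probe set, green for otic minus lateral ectoderm and blue for FGF2 minus no FGF2, filled where called, with dotted lines at 2-fold changes. Filled points on the higher side gather in the panel of feedback inhibitors (6 green and 7 blue of 11 genes), and the receptors have 1 filled point, KL at -1.37.

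Genes whose profile over the 8 arrays was most like that of an FGF gene were found by Pearson's r of log2 values among 7451 genes of sufficient intensity. The arrays share their group structure, so that r is a description with no test. The 3 genes nearest to FGF8 were ITGB3 (r = 0.982), an integrin subunit, ATP13A3 (0.982) and PICK1 (0.976). Nearest to FGF19 were IKZF3 (0.989) and SALL1 (0.981), which encode zinc finger factors, and VAV3 (0.97). FGF10 was nearest to FZD8 (0.958), a Wnt receptor gene, ZNF830 (0.957) and ETV5 (0.94), and FGF18 to TWSG1 (0.956), HS6ST2 (0.955) and ARMC9 (0.953). FGF3 was nearest to TK1 (0.977), SLC13A3 (0.97) and THBS4 (0.965), and FGF1 to NRG2 (0.935), TMEM186 (0.902) and SCRN1 (0.893). The third FGF13 probe set in brightness was nearest to VEGFA (0.983), DIRC2 (0.97) and ACAD8 (0.967).

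Other tissues next to the dissected ectoderm also make FGFs, and their markers were read beside these results. In otic ectoderm the sum of 11 mesoderm markers was 1790 and 4230, against 5340 and 7000 on the lateral arrays, with FOXC2 higher (165 and 508 against 20.4 and 35.6) and COL3A1 lower (132 and 692 against 3056 and 4681). COL3A1 made up most of the lateral sum, and the median log2 difference of the 11 was 0.16, against 0.19 for all genes. The sum of 9 endoderm markers was 2460 and 4990 on the otic arrays against 9610 and 5800 on the lateral arrays, with CER1 higher (129 and 136 against 22.9 and 4.1) and APOA1 lower. TTR and APOA1 made up most of the lateral sum, and the median log2 difference of the 9 was -0.63. SOX17 had 470.5 and 611 on the otic arrays against 473 and 618 on the lateral arrays. FOXA2, which was not called, had 178 and 161 against 54.3 and 120. The sum of 8 markers of neural tube and hindbrain was 2910 and 2910 on the otic arrays against 874 and 1570 on the lateral arrays. SOX2 and MSI1 were called higher, and the others of this list were not called. MSI1 alone had 2072.5 and 1387 on the otic arrays against 280 and 698 on the lateral arrays. The paper counts both SOX2 and MSI1 (Musashi1) among genes of the otic placode, so that this sum does not tell neural tissue from placode. The sum of 4 markers of notochord and floor plate was 262 and 313 against 193 and 227, with 0 of 4 called, and 2 of 6 neural crest markers were higher. Of 8 epidermis markers 5 were lower in otic ectoderm, as were 4 of 9 of endothelium and blood. None of these lists had a value listed at 0, and their part in the FGF results was not tested.

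In the cultures, the mesoderm markers summed to 1770 and 1840 with FGF2 and to 1770 and 759 without it. Of the 11, 3 were called higher, TWIST1, MEOX2 and FOXC1, against 2.14% of all genes. The median log2 difference of the 11 was 0.25, against 0.12 for all genes. MEOX2 was called from values under the array medians, 5.9 and 22.2 with FGF2 and 1.3 and 3.7 without it. FOXC1 had 46.5 and 30.9 with FGF2 and 19 and 9.7 without it. The endoderm sum was 1140 and 1120 with FGF2 against 1580 and 441 without it, with 0 of 9 called. The sum of neural tube and hindbrain markers was 6430 and 5860 with FGF2 against 6720 and 9180 without it, with OLIG2 higher. PAX6, MSI1 and ZIC1 made up most of this sum, and the other listed markers reached at most 191 in the cultures. SOX1 had 29.6 and 14.6 with FGF2 and 16.4 and 33 without it, and SOX2 had 99.7 and 42.9 against 58.8 and 55.6. Since the paper counts MSI1 among genes of the otic placode, the sum does not tell neural tissue from placode in the cultures either. HOXB1 had 31.9 and 28.5 with FGF2 and 49.4 and 20.6 without it, against 530 and 1322 on the otic arrays, while PAX6 had 19.2 and 44.3 there. The sum of 9 endothelium and blood markers was 484 and 497 with FGF2 against 427 and 315 without it, with TAL1 called higher and a median log2 difference of 1.1, against 0.12 for all genes. The neural crest sum was 4300 and 4160 with FGF2 and 4010 and 5900 without it, with 0 of 6 called. The trigeminal list had NEUROD1 and ISL1 higher with FGF2, and the otic list PAX2 and GBX2. Control probe sets for the 3′ and the 5′ end of actin, whose log2 difference depends on RNA integrity and amplification, differed by 1.32 and 1.36 on the otic arrays against 1.10 and 1.02 on the lateral arrays, and 1.35 and 1.24 with FGF2 against 1.42 and 1.20 without it. Those of GAPDH differed by 1.92 and 1.69 on the otic arrays against 2.27 and 2.18 on the lateral arrays, and by 1.39 and 1.71 with FGF2 against 1.6 and 1.06 without it. The part of these differences in the FGF results was not tested.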

How the data were processed

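Otic, lateral and cultured trigeminal ectoderm were measured on 8 Affymetrix arrays, 2 in each of 4 groups. The authors deposited a linear intensity for each probe set and array. The probe summary, the background correction and any scaling of the arrays are, in the sources used here, not given. The submitters' processing notes name limma, without a version. A DNase step was omitted from the RNA isolation. Genes were named from the platform annotation. Of 38535 probe sets, 96 controls were left out, and of the 38439 tested, 27168 name 1 gene, 177 several and 11094 none.

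Values under 1, which made up 2.30% to 2.90% of an array, were set to 1 before the log2, without scaling or filter. A model with 4 group means was fitted to all 8 arrays in R 4.3.3 by lmFit and eBayes (limma 3.58.1), with 4 residual degrees of freedom. The two-sided p-values were Benjamini-Hochberg adjusted over 38439 probe sets. The number of arrays limits the precision. Simulated data with known changes were used to check the procedure. The changes were planted only in the otic group and only in probe sets with a mean log2 above 6. Most FGF probe sets are dimmer, so that the check does not cover their range. In a fit without an array, the lone array left in its group is taken to vary as the other groups do.

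The FGF genes, the lists of pathway and marker genes and the limits were chosen with earlier results of these data known. Every FGF probe set is accounted for. From a pathway or marker list up to 4 called genes of smallest p were taken, and for each called FGF gene the 3 genes of highest correlation among those with a mean log2 of at least 6. Other genes, such as FGF4, the receptors, SPRY3, DUSP5, SPRED1, PAX3, ISL1, DLL1 and SOX2, were named after their values were seen. The alternatives were quantile normalization, median centring, an offset of 32, a floor of 16, both scaling and offset, leaving out the dimmest 40% of probe sets, a fit of the 4 arrays of a comparison, eBayes with a trend, each of the 8 arrays left out, a block for the replicate number, and other limits for a call. The comparison of trigeminal ectoderm without FGF2 with lateral ectoderm, and alternatives for the pathway counts and for trigeminal ectoderm with FGF2 against otic ectoderm, were added after seeing the data. Python 3.11.15 with matplotlib 3.10.9 made the figures.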

Additional observations from a re-analysis of the deposited data

How the results depend on the processing

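For otic minus lateral ectoderm, the 7 FGF probe sets called higher became 5 in a fit of the 4 arrays compared, 4 with an offset of 32, 3 with quantile normalization and that offset, and 0 at an adjusted p under 0.05. They ran from 5 to 7 when an array was left out. Leaving out the dimmest 40% of probe sets removes the 1 called lower itself, as well as FGF3 S2 and FGF10, so that it does not test their calls. The 1 called lower became 2 after quantile normalization or median centring and 3 with a fold limit alone. It became 0 with the offset, with quantile normalization and the offset, with a floor of 16, without the dimmest 40% of probe sets, in a fit of 4 arrays and at an adjusted p under 0.05, and ran from 0 to 3 when an array was left out, with 3 without otic replicate 2 and 0 without otic replicate 1 or either lateral replicate. For FGF2 minus no FGF2, the 4 called higher became 3 after quantile normalization, 6 in a fit of 4 arrays, 2 with the offset, 2 with quantile normalization and the offset and 0 at an adjusted p under 0.05, and ran from 2 to 6 when an array was left out, with 2 without replicate 2 of FGF2 or replicate 1 of no FGF2. The 0 called lower became 1 with a fold limit alone, and ran from 0 to 1 when an array was left out, with 1 without replicate 1 of FGF2. The otic excess of FGF8 over its FGF2 difference reversed to -0.35 with the offset and to -0.66 with the floor. The cause was not tested.

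For samples with the same number, the deviations from the group means over all probe sets correlated between -0.02 and 0.03 over 6 pairs. No broad shift common to such samples was thus seen, but a shared day or batch that moved few probe sets would be missed. With the replicate number as a block the counts were 7 higher and 1 lower in otic ectoderm, and 4 higher and 1 lower with FGF2, where the dimmest FGF13 probe set was gained. Adjusted p-values under 0.05 were reached for otic minus lateral ectoderm by FGF8 and FGF19 with the eBayes trend (0.042 each, 45 probe sets in all), and by FGF19 with quantile normalization and the offset (0.039, 42 in all). In the FGF2 comparison 0 FGF probe sets reached it under any setting.

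The main limits are 2 arrays per group, an unknown summary method, the lack of detection calls and readings near the bottom of the scale. A lone probe set reads FGF2, FGF8, FGF10, FGF12, FGF18 and FGF19, and changes in transcript ends or splicing that these probes do not read would be missed.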
